A study of Mus musculus with 6 samples.

Results

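Tsnax, Disc1 and Tsn are 3 mouse genes out of the 37315 in the abundance table of this RNA sequencing series, and all 3 also have rows in the table of allelic counts, which lists 19402 genes. They were chosen by gene name. Tsnax encodes translin-associated factor X (TRAX), Tsn encodes its partner translin, and Disc1 (disrupted in schizophrenia 1) is the next protein-coding gene beside Tsnax on chromosome 8. Tsnax itself was selected on measured values, the maternal shares of its allelic counts in the clones Abl.3 and Abl.4 in these same libraries, and Disc1 and Tsn were added as its neighbour and its partner. Its allelic values in those clones, and its abundance differences involving them, are therefore given as a description without a test.

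The cells were 3 clonal lines of immortalised B cells with the strain background 129S1/SvImJ x CAST/EiJ F1, so that most transcripts carry sequence differences telling the parental copies apart. The labels give the sex as female for Abl.2 and Abl.4 and as male for Abl.3. All 3 lines were controls in growth medium with 1% DMSO, a solvent, and live cells were collected on day 2. Each line is a single clone with 2 libraries, labelled as library preparation replicates, so that p-values measure the spread between libraries of 1 clone, which may be purely technical. In such bulk samples, fewer cells making a transcript and less transcript in each cell cannot be told apart.

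Translin and TRAX form a ring-shaped complex, known as C3PO, in which TRAX carries the ribonuclease activity. C3PO removes the nicked passenger strand of small interfering RNAs from Argonaute during RNA interference and trims the leader fragments left by RNase P during tRNA maturation. TRAX protein is known to be unstable in cells without translin. DISC1 is a scaffold protein of the centrosome and of mitochondrial transport, studied mostly in neurons, and readthrough transcripts from TSNAX into DISC1 are known in human.

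Tsnax (ENSMUSG00000056820) spans chromosome 8 from 125012997 to 125034192 on the plus strand, and 1 annotated processed pseudogene lies in one of its introns without touching an exon. Disc1 (ENSMUSG00000043051) spans chromosome 8 from 125054195 to 125261858 on the same strand, with 20002 bases between the end of Tsnax and its start. Tsn (ENSMUSG00000026374) spans chromosome 1 from 118294778 to 118311739 on the minus strand and overlaps no other annotated gene. The coordinates are those of the deposited tables, which for these genes match the GENCODE release M21 annotation of GRCm38.

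The stretch just before the annotated Disc1 start is shown because Disc1 was silent beside the active Tsnax. Whether it acts as a promoter in these cells was not tested. The stretch is the 250 bases at chr8:125053945-125054194 on the plus strand, from RefSeq (GRCm38.p6), with each CG dinucleotide in capitals.
Disc1: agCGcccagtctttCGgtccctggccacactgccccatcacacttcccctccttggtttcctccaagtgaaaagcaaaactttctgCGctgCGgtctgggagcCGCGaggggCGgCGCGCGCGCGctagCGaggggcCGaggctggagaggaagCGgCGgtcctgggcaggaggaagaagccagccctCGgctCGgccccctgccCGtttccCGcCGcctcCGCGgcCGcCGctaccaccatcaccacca
The window holds 25 CG dinucleotides (CG reads the same on both strands) and 69.2% of its bases are G or C. Of 32851 windows of the same length before gene starts, 10.7% hold at least as many CG, and their median is 6. The count is a description of the sequence, and methylation of these bases was not measured here.

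The allelic counts summed to between 18362319 and 26881211 per library. All 10 B-lineage markers were at 1 TPM or more in every clone (TPM, transcripts-per-million, a level scaled to gene length and library total), with summed levels of 12618 to 13977 TPM. Of the markers of T cells, erythroid cells and fibroblasts, 0 of 5, 0 of 3 and 0 of 4 reached 1 TPM in any clone. Of 4 myeloid markers, Lyz2 (lysozyme 2) was at 70.8 to 193 TPM over the 6 libraries, Itgam (CD11b) was at 6.89 and 6.74 TPM in Abl.4 and at most 0.97 TPM elsewhere, and Cd14 was at 0 in all libraries. The summed myeloid level was 158 to 193 TPM in Abl.2, 74.8 to 97.2 TPM in Abl.3 and 77.9 to 89.4 TPM in Abl.4, and its part in the results below was not tested.

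Tsnax was read from different parental copies in the 3 clones: mostly maternal in Abl.2, almost purely maternal in Abl.3 and almost purely paternal in Abl.4. In Abl.2 the libraries held 2494 maternal and 683 paternal counts, and 3146 maternal and 973 paternal counts. In Abl.3 they held 1523 maternal and 1 paternal, and 1385 maternal and 2 paternal. In Abl.4 they held 5 maternal and 631 paternal, and 3 maternal and 540 paternal. Both copies were thus used in Abl.2, and each of the other clones used the copy that the other left all but silent.

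As a share of all allelic counts of the gene, the maternal copy gave 78.5% (95% Wilson interval 77.0% to 79.9%) and 76.4% (75.1% to 77.7%) in Abl.2. It gave 99.9% in both libraries of Abl.3, with lower bounds of 99.6% and 99.5%. It gave 0.786% (0.336% to 1.83%) and 0.552% (0.188% to 1.61%) in Abl.4. These intervals cover counting error only, since the kit tags no molecules and PCR copies are counted too. No library of one clone overlapped those of another. In the authors' deposited table, which averages the replicates, the maternal fraction of Tsnax was 0.77 in Abl.2 with limits of 0.73 and 0.81, 1.0 in Abl.3 with limits of 0.98 and 1.0, and 0.01 in Abl.4 with limits of 0.0 and 0.06.

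The imbalance within Abl.2, a clone not used in choosing the gene, was tested. The fit estimated the spread over the libraries of all clones, so its SE and p-value also draw on counts used in choosing the gene. Maternal counts exceeded paternal ones by 1.78 on the log2 scale (SE 0.09, n = 2, adjusted p = 2.89e-08, edgeR quasi-likelihood test with Benjamini-Hochberg adjustment), higher in 2 of 2 libraries. An imbalance was called for 49.1% of the 8702 genes tested in Abl.2, so the call itself does not set Tsnax apart in that clone. The median maternal share over 473 tested genes of chromosome 8 lay between 0.497 and 0.505 in all 6 libraries, so that the shares of Tsnax were not those of its chromosome.

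The output of each copy was then read in allelic CPM, the counts of that copy scaled to the summed allelic counts of the library (counts-per-million), which separates the maternal from the paternal transcript. The maternal copy gave 109.9 and 117.0 CPM in Abl.2, 76.6 and 75.4 in Abl.3, and 0.250 and 0.150 in Abl.4. The paternal copy gave 30.1 and 36.2 CPM in Abl.2, 0.0503 and 0.109 in Abl.3, and 31.5 and 27.0 in Abl.4. The maternal output of Abl.3 thus lay below that of Abl.2 in both libraries, while the paternal output of Abl.4 overlapped that of Abl.2.

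**Figure D1:**
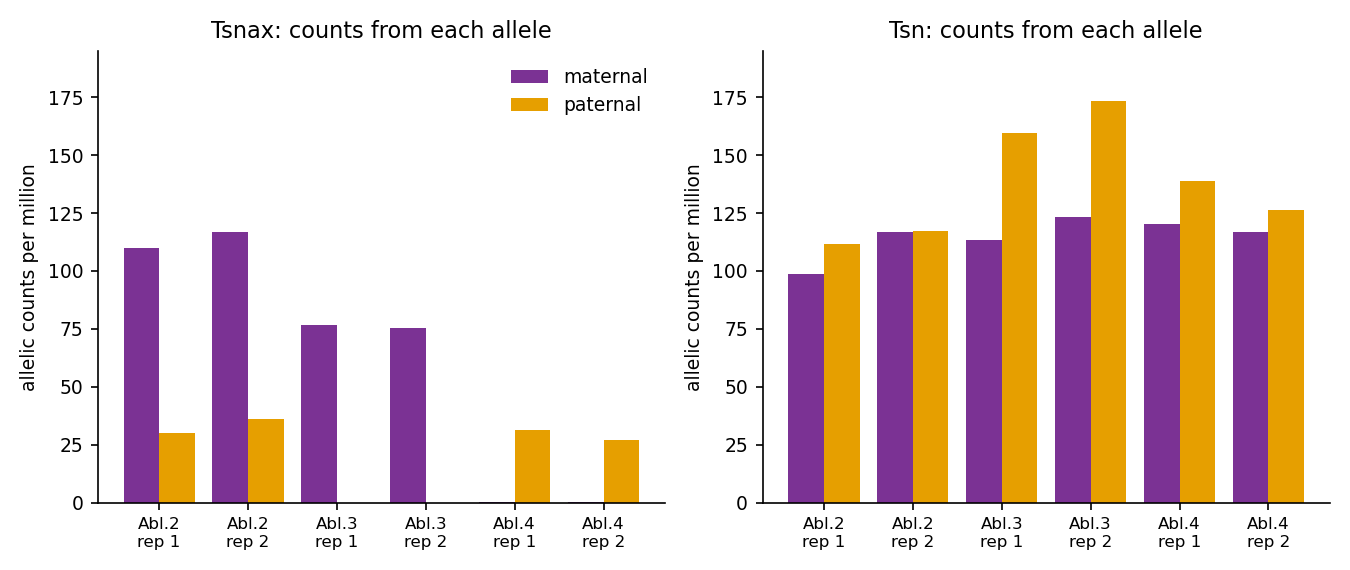
Allelic CPM (vertical axis) of Tsnax (left) and Tsn (right) from the maternal (purple) and paternal (orange) copy in each of the 6 libraries. For Tsnax the paternal bars of Abl.3 and the maternal bars of Abl.4 are at or below 0.250 CPM, and the paternal bars of Abl.4 stand at the height of those of Abl.2, while Tsn has bars of both colours in every library.

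Between clones, the log2 difference in the maternal output of Tsnax was 0.57 for Abl.2 against Abl.3, and that in its paternal output was 0.18 for Abl.2 against Abl.4 (0.0497 to 0.317 without any 1 library of those clones). Both rest on counts used in choosing the gene and are given without a test. The copy in use gave a mean of 76.0 CPM in Abl.3, where it was maternal, and 29.3 in Abl.4, where it was paternal, beside 113 and 33.1 for the maternal and paternal copies of Abl.2.

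In abundance, Tsnax was at 48.3 and 50.9 TPM in Abl.2, 25.6 and 22.7 TPM in Abl.3 and 10.0 and 7.68 TPM in Abl.4. The clone with both copies in use had the highest level and the clone reading the paternal copy the lowest, and the libraries of the 3 clones did not overlap. On the log2(TPM + 1) scale, its level in Abl.2 lay 1.01 above that in Abl.3 and 2.37 above that in Abl.4, and its level in Abl.3 lay 1.36 above that in Abl.4. Each of these differences rests on libraries used in choosing the gene and is given without a test. Of 11003 genes tested by limma with Benjamini-Hochberg adjustment, 39.8%, 33.5% and 38.1% had an abundance difference for Abl.2 against Abl.3, Abl.2 against Abl.4 and Abl.3 against Abl.4. Those are 4382, 3682 and 4194 genes. The first count was 2466 to 2811 without any 1 library of Abl.2 or Abl.3, the second 1970 and 2078 without replicates 1 and 2 of Abl.2, and the last 2343 and 2370 without replicates 1 and 2 of Abl.3.

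**Figure D2:**
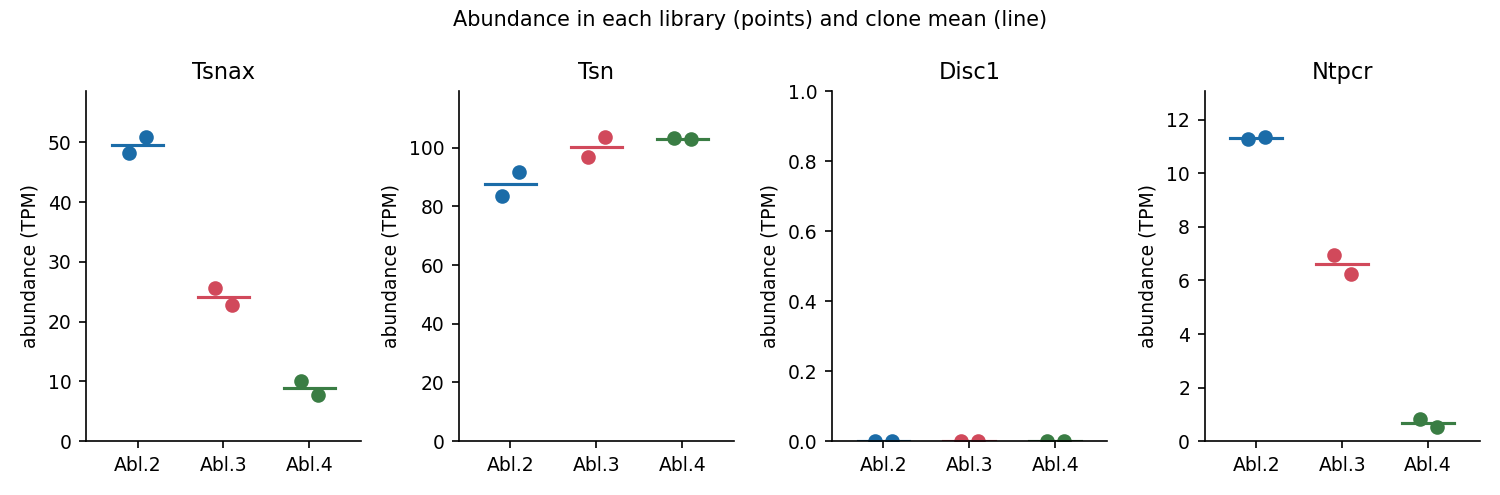
Abundance in TPM (vertical axes, each from 0) of Tsnax, Tsn, Disc1 and Ntpcr in each library (points) with the mean of the clone (line). Tsnax and Ntpcr are highest in Abl.2 and lowest in Abl.4, Tsn lies between 83.4 and 103.7 TPM, and Disc1 is listed at 0 throughout.

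Disc1 was not detected as an active gene in any clone. Its abundance was listed at 0 TPM in all 6 libraries. Its allelic counts were 0 in 5 libraries, for which an approximate 95% upper limit is 3 counts each, or 0.112 to 0.163 allelic CPM. The exception was replicate 2 of Abl.4, with 4 maternal and 0 paternal counts, or 0.20 CPM. Those counts come from the clone in which Tsnax was read from the paternal copy, and 4 counts are too few for a share. Disc1 passed neither filter and was not tested. Beside Tsnax at 7.68 to 50.9 TPM, Disc1, which starts 20002 bases further on, thus gave 4 counts in 1 library and 0 in the others.

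The neighbours of Tsnax were read next, as the 30 genes of the abundance table with a start within 1 Mb of its own. Toward lower coordinates lies a run of active genes, and none of those with allelic counts shared the allelic pattern of Tsnax. Arv1, at 4.21 to 6.23 TPM, had no allelic counts listed and could not be read. Toward higher coordinates the chromosome was nearly silent: of the 9 genes that start between Tsnax and Slc35f3, 7 were at 0.1 TPM or less in every library. Beside the 4 maternal counts of Disc1 in 1 library of Abl.4, allelic counts came from Ntpcr and, in 1 clone, Sipa1l2, and these leaned to the same copy as Tsnax in Abl.4.

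Ntpcr, which encodes a cancer-related nucleoside triphosphatase, starts 717 kb beyond Tsnax. It held 179 maternal and 1 paternal counts and 206 maternal and 0 paternal counts in Abl.2, and 98 and 90 maternal with 0 paternal counts in Abl.3. In Abl.4 it held 2 maternal and 18 paternal counts in replicate 1, and 0 maternal and 12 paternal counts in replicate 2. Like Tsnax it was maternal in Abl.3 and mostly paternal in Abl.4, but in Abl.2 its paternal copy was all but silent. The 12 counts of replicate 2 of Abl.4 kept it below the minimum of 20 counts per library and out of the main allelic test. With a minimum of 10 counts its allele ratio differed between Abl.3 and Abl.4 (adjusted p = 0.000113) and between Abl.2 and Abl.4 (adjusted p = 3.22e-05) by the edgeR quasi-likelihood test, and the imbalance within Abl.4 had an adjusted p of 0.00739. At that minimum the test called 16.2%, 21.9% and 39.2% of 9096 genes in those comparisons.

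The abundance of Ntpcr stood in the same order as that of Tsnax, at 11.3 and 11.4 TPM in Abl.2, 6.97 and 6.26 TPM in Abl.3 and 0.81 and 0.53 TPM in Abl.4. It was higher in Abl.2 than in Abl.4 by 2.89 (SE 0.15, adjusted p = 4.2e-05) and higher in Abl.3 than in Abl.4 by 2.19 (SE 0.15, adjusted p = 0.000145) on the log2(TPM + 1) scale, by limma. The difference between Abl.2 and Abl.3 was 0.70 (SE 0.15, adjusted p = 0.0119, limma), and it missed the threshold without replicate 1 of Abl.2 (adjusted p = 0.0654), replicate 2 of Abl.2 (0.0695) or replicate 2 of Abl.3 (0.0732).

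Sipa1l2, which encodes a regulator of the small GTPase Rap, starts 405 kb beyond Tsnax and was listed at 0 TPM in Abl.2 and Abl.3, with 0 allelic counts in each of their libraries. In Abl.4 it was at 0.34 and 0.16 TPM, with 7 maternal and 27 paternal counts in replicate 1 and 0 maternal and 21 paternal counts in replicate 2. The paternal lean beyond Tsnax did not go on to the end of the chromosome. Slc35f3, 1.29 Mb beyond Tsnax, was maternal in all 3 clones, with 0 or 1 paternal counts in each library out of 55 to 161. Coa6, 1.41 Mb beyond it, was read from both copies, with the maternal share averaging 0.462, 0.545 and 0.594 over the libraries of Abl.2, Abl.3 and Abl.4. Over the 6 tested genes with a start beyond Tsnax, the median share lay between 0.474 and 0.525 in all libraries, so both copies of the chromosome end were read in each clone.

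**Figure D3:**
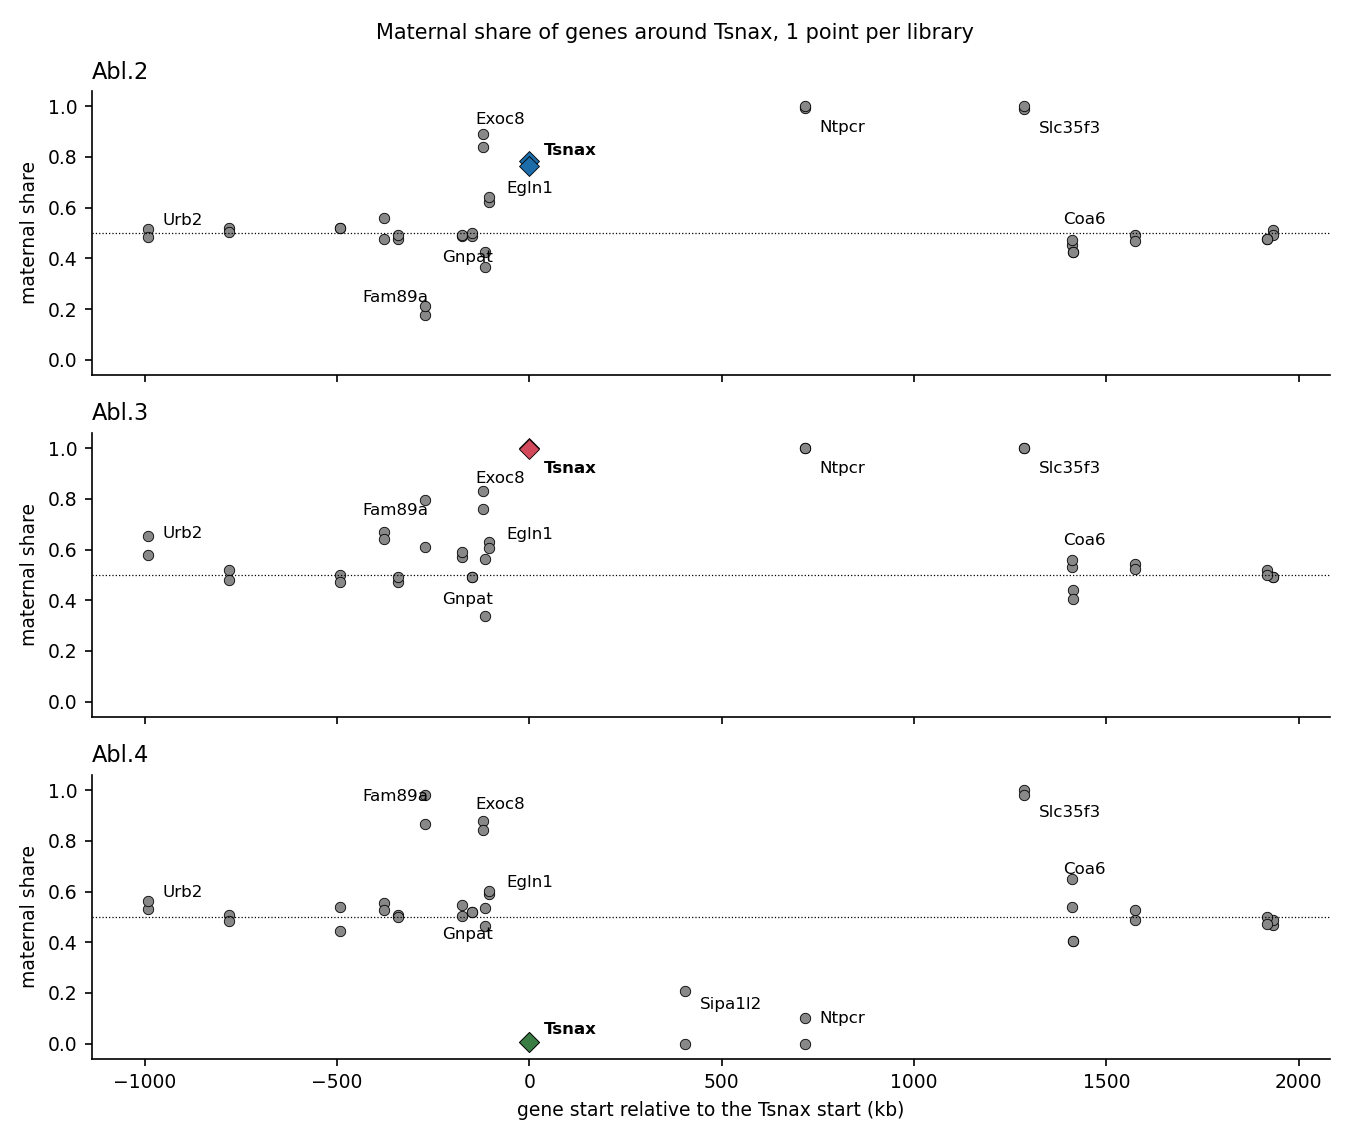
Maternal share of allelic counts (vertical axis) of genes with at least 10 allelic counts in a library, against the distance of their start from that of Tsnax in kb (horizontal axis), with a panel for each clone and 1 point per library. Tsnax (coloured diamonds) is at the top in Abl.3 and at the bottom in Abl.4, where Sipa1l2 and Ntpcr are also low, while Gnpat, at 0.487 to 0.519, lies near the dotted line at equal shares and Egln1 lies somewhat above it in every library.

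On the other side, the nearest tested gene was Egln1, an oxygen-sensing prolyl hydroxylase of the HIF pathway, which starts 104 kb before Tsnax. Its maternal share was 0.620 and 0.642 in Abl.2, 0.630 and 0.607 in Abl.3, and 0.59002 and 0.60026 in Abl.4. It was maternally biased in each clone, by 0.78 (adjusted p = 1.17e-05), 0.70 (adjusted p = 6.43e-05) and 0.56 (adjusted p = 0.000239) on the log2 scale in the edgeR test, and no difference in allele ratio between clones passed the threshold. Exoc8, a subunit of the exocyst that tethers secretory vesicles, was maternally biased in all clones, at shares of 0.761 to 0.890. Gnpat, which starts ether lipid synthesis, was at 0.487 to 0.519 in the 6 libraries.

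Of the 11 neighbours tested for alleles, 6 had an imbalance in at least 1 clone and 4 had a difference between at least 1 pair of clones. The same rules called 66.1% and 35.6% of all genes tested, so these counts are near the background. That background includes chromosomes 4 and 10, whose median maternal shares in Abl.2 averaged 0.998 and 0.337, beside 0.501 for chromosome 8. A background over chromosome 8 alone was not counted. The 4 with a difference were Urb2, 2310022B05Rik, Fam89a and 2810004N23Rik. Fam89a, at 0.34 to 1.11 TPM, was the largest of them, with shares of 0.175 and 0.211 in Abl.2, 0.797 and 0.609 in Abl.3 and 0.866 and 0.981 in Abl.4. It was thus paternal in the clone where Tsnax used both copies and maternal in the clone where Tsnax was paternal. The others moved less: Urb2, a factor of ribosome assembly, had 0.516 and 0.483 in Abl.2 against 0.652 and 0.577 in Abl.3, a log2 difference of -0.68 (SE 0.16, adjusted p = 0.00737, edgeR). That call was lost without replicate 2 of Abl.2 (adjusted p = 0.0625) or replicate 1 of Abl.3 (0.0744, with a difference of -0.45). For 2310022B05Rik and 2810004N23Rik the maternal share was also higher in Abl.3 than in Abl.2, by -0.82 (SE 0.16, adjusted p = 0.00242) and -0.53 (SE 0.12, adjusted p = 0.00534) on the scale of Abl.2 minus Abl.3, by edgeR. 2310022B05Rik also differed between Abl.3 and Abl.4, by 0.69 (adjusted p = 0.0144, edgeR), a call lost without replicate 1 of Abl.3 (0.127) or replicate 2 of Abl.4 (0.0613).

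In abundance, 7 of 12 tested neighbours differed between at least 1 pair of clones, against 59.7% of all genes tested. They were Urb2, 2310022B05Rik, Ttc13, Exoc8, Sprtn, Egln1 and Ntpcr. On summed allelic counts 5 of 11 were called by edgeR and 4 of 11 by DESeq2, where 62.9% and 62.6% of all genes were. Sprtn encodes a protease for proteins crosslinked to DNA, and its only call, for Abl.2 against Abl.3 (0.60, adjusted p = 0.0191, limma), was lost without replicate 1 of Abl.2 (0.096), replicate 2 of Abl.2 (0.087) or replicate 2 of Abl.3 (0.102). Exoc8 was called for Abl.2 against Abl.3 and for Abl.3 against Abl.4, and both calls were lost without replicate 2 of Abl.3 (adjusted p = 0.136 and 0.0592, limma) and on summed allelic counts (0.269 and 0.061, edgeR), the first also without any other single library of Abl.2 or Abl.3. The active neighbours on the lower side did not all share the order of Tsnax. Urb2 did, at 16.5 and 16.1 TPM in Abl.2, 12.3 and 12.8 TPM in Abl.3 and 9.75 and 9.84 TPM in Abl.4, and was higher in Abl.2 than in Abl.4 by 0.68 (SE 0.10, adjusted p = 0.00326, limma). Its smaller differences, 0.35 for Abl.2 against Abl.3 (adjusted p = 0.0338) and 0.33 for Abl.3 against Abl.4 (adjusted p = 0.0433), missed the threshold by limma without any single library of the clones compared, and the last also without either library of Abl.2. Egln1, in contrast, was at 28.5 and 32.7 TPM in Abl.3 and 46.4 and 56.3 TPM in Abl.4, higher in Abl.4 by 0.73 on the log2(TPM + 1) scale (SE 0.12, adjusted p = 0.00559, limma). 2310022B05Rik was at 10.9 and 9.08 TPM in Abl.3 and 21.83 and 21.96 TPM in Abl.4, again higher in Abl.4, by 1.07 (SE 0.12, adjusted p = 0.00093, limma). Ttc13 was higher in Abl.2 than in Abl.3 by 0.54 (SE 0.09, adjusted p = 0.00417, limma). The only neighbour below 1 TPM in Abl.4 among those tested was Ntpcr.

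Tsn, the partner of Tsnax, was read from both copies in every clone. Its maternal and paternal counts were 2244 and 2532, and 3137 and 3155, in Abl.2. They were 2253 and 3167, and 2261 and 3182, in Abl.3, and 2409 and 2775, and 2338 and 2530, in Abl.4. The maternal share was 0.470 and 0.499 in Abl.2, 0.416 and 0.415 in Abl.3 and 0.465 and 0.480 in Abl.4. The paternal copy was thus somewhat ahead in Abl.3, and the libraries of Abl.2 and Abl.4 overlapped each other and lay above those of Abl.3. In the authors' deposited table the maternal fraction was 0.49, 0.42 and 0.47 for Abl.2, Abl.3 and Abl.4, with limits of 0.45 and 0.53, 0.37 and 0.46, and 0.42 and 0.52.

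The paternal excess of Tsn was called in Abl.3 alone: the log2 ratio of maternal to paternal counts was -0.49 there (SE 0.06, adjusted p = 7.03e-05, edgeR), where 45.1% of genes had an imbalance. It was -0.09 in Abl.2 (SE 0.06, adjusted p = 0.246; -0.0083 and -0.17 without replicates 1 and 2 of Abl.2) and -0.16 in Abl.4 (SE 0.06, adjusted p = 0.0569), by the same test, where 39.9% of genes had an imbalance in Abl.4. The ratio differed between Abl.2 and Abl.3 by 0.40 (SE 0.08, adjusted p = 0.00362, edgeR), a call lost without replicate 2 of Abl.2 (adjusted p = 0.0527). It differed between Abl.3 and Abl.4 by -0.33 (SE 0.08, adjusted p = 0.0211, edgeR), a call lost without replicate 1 of Abl.3 (0.0928), replicate 2 of Abl.3 (0.0971) or replicate 2 of Abl.4 (0.0836). Between Abl.2 and Abl.4 the difference was 0.07 (SE 0.08, adjusted p = 0.688, edgeR), and -0.015 to 0.15 without any 1 library of those clones. Allelic differences were called for 28.4%, 16.5% and 22.3% of genes in those 3 pairs. Chromosome 1 as a whole stood at the same side in Abl.3: over its 492 tested genes the median maternal share averaged 0.447 there, against 0.504 in Abl.2 and 0.505 in Abl.4, and the part of this in the Tsn result was not tested.

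By copy, the maternal output of Tsn was 98.9 and 116.7 CPM in Abl.2, 113.4 and 123.1 in Abl.3, and 120.4 and 116.9 in Abl.4. The paternal output was 111.5 and 117.4 CPM in Abl.2, 159.4 and 173.3 in Abl.3, and 138.7 and 126.5 in Abl.4. The paternal values of Abl.3 lay above all others, and the maternal values of Abl.3 overlapped those of both other clones, while those of Abl.2 lay below those of Abl.4. Paternal Tsn transcript was more abundant in Abl.3 than in Abl.2 (log2 of Abl.2 over Abl.3 of -0.55, SE 0.11, adjusted p = 0.000901, edgeR), where 43.6% of genes were called. For Abl.3 against Abl.4 it was 0.33 (SE 0.11, adjusted p = 0.0279, edgeR, 33.0% of genes called), a call lost without replicate 1 of Abl.3 (0.0558), replicate 2 of Abl.3 (0.183) or replicate 2 of Abl.4 (0.124). For Abl.2 against Abl.4 the paternal difference was -0.21 (SE 0.11, adjusted p = 0.139, edgeR, 37.4% of genes called), or -0.12 without replicate 1 of Abl.4 (adjusted p = 0.412). None of the 3 maternal differences passed the threshold, with adjusted p-values of 0.327, 0.361 and 0.987 by edgeR, where 39.7%, 33.5% and 33.2% of genes did. The 95% intervals of those differences were -0.38 to 0.09, -0.37 to 0.10 and -0.23 to 0.24 for Abl.2 against Abl.3, Abl.2 against Abl.4 and Abl.3 against Abl.4. Without 1 library, the first difference lay between -0.26 and -0.037, the second between -0.25 and -0.034 and the last between -0.061 and 0.065.

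The abundance of Tsn was 83.4 and 91.5 TPM in Abl.2, 96.9 and 103.7 TPM in Abl.3 and 103.2 and 102.9 TPM in Abl.4. Abl.2 was the lowest clone, without overlap, and Abl.3 and Abl.4 overlapped. No pair passed the threshold by limma on log2(TPM + 1) without a block: Abl.2 against Abl.3 differed by -0.20 (95% interval -0.39 to 0.00, adjusted p = 0.103, or -0.13 without replicate 1 of Abl.2), Abl.2 against Abl.4 by -0.24 (-0.43 to -0.04, adjusted p = 0.0699) and Abl.3 against Abl.4 by -0.04 (-0.24 to 0.16, adjusted p = 0.737). With the replicate number as a block, Abl.2 against Abl.3 and Abl.2 against Abl.4 passed the threshold, with adjusted p-values of 0.0492 and 0.0318 by limma. The call for Abl.2 against Abl.3 also depended on the scale. On summed allelic counts that difference was -0.36 with an adjusted p of 0.00976 by edgeR. Setting all libraries to a common median, which moved the median of all genes by -0.18 for that pair and by 0.24 for Abl.3 against Abl.4, gave -0.38 with an adjusted p of 0.0129 by limma.

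Because TPM are scaled to gene length, the levels of the partners can be set side by side. The level of Tsn over that of Tsnax was 1.73 and 1.80 in Abl.2, 3.79 and 4.56 in Abl.3, and 10.3 and 13.4 in Abl.4. Tsn was thus the more abundant transcript in every library, and the ratio was larger the lower Tsnax was (means of 1.76 ± 0.05, 4.17 ± 0.55 and 11.9 ± 2.2, SD, n = 2). Since Tsnax is the denominator and Tsn varied little, this order follows from the levels of Tsnax. The clone with the lowest Tsn was the one with the highest Tsnax.

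The neighbours of Tsn showed no switch of copy. Nifk, whose protein binds the proliferation antigen Ki-67, starts 27.1 kb from Tsn and had maternal shares of 0.637 to 0.680 in the 6 libraries. Clasp1, which encodes a protein of growing microtubule ends, had shares of 0.474 to 0.542. Both passed the filters, 0 of these 2 genes had an allelic difference between clones in the edgeR test (1, Clasp1, at an unadjusted p below 0.05, and 0 by DESeq2), and both differed in abundance in at least 1 pair by limma. Over all genes tested, those shares were 35.6% and 59.7%. Leaving out replicate 1 or 2 of Abl.4 left 1 of them with an abundance difference, where 57.8% and 52.6% of all genes had one.

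Of 8479 other autosomal genes tested, the 5 whose maternal shares over the 6 libraries lay nearest to those of Tsnax were Gstt2, Zfp870, Spp1, P2rx7 and Xrcc5, by the Euclidean distance of the shares. Gstt2, a glutathione S-transferase on chromosome 10, was nearest at 0.187, with shares of 0.833 and 0.787 in Abl.2, 0.952 and 1.0 in Abl.3, and 0.0811 and 0.162 in Abl.4. It resembled Tsnax in all 3 clones, on 21 to 111 counts per library. Its level did not, since it was at 9.67 and 10.4 TPM in Abl.2, 4.58 and 2.97 TPM in Abl.3 and 32.7 and 32.3 TPM in Abl.4. Zfp870, a zinc finger gene on chromosome 17 at a distance of 0.329, had 0 paternal counts in Abl.3 and 0 maternal counts in Abl.4, and used both copies in Abl.2 at shares of 0.594 and 0.497.

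Spp1 (osteopontin, distance 0.466), P2rx7 (an ATP-gated ion channel, 0.496) and Xrcc5 (the Ku80 subunit of DNA end joining, 0.533) followed with less complete patterns. Xrcc5 had shares of 0.614 and 0.586 in Abl.2, 0.652 and 0.679 in Abl.3, and 0.00296 and 0.00283 in Abl.4. Like Tsnax it gave almost no maternal transcript in Abl.4, but it was read from both copies in Abl.3. Its abundance stood in the same order as that of Tsnax, at 36.1 and 38.4 TPM, 16.9 and 15.5 TPM, and 10.4 and 12.2 TPM. Counting genes with a share of at least 0.9 in both libraries of Abl.3 and at most 0.1 in both of Abl.4 gave 6 autosomal genes including Tsnax, and the reverse pattern gave 5.

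**Figure D4:**
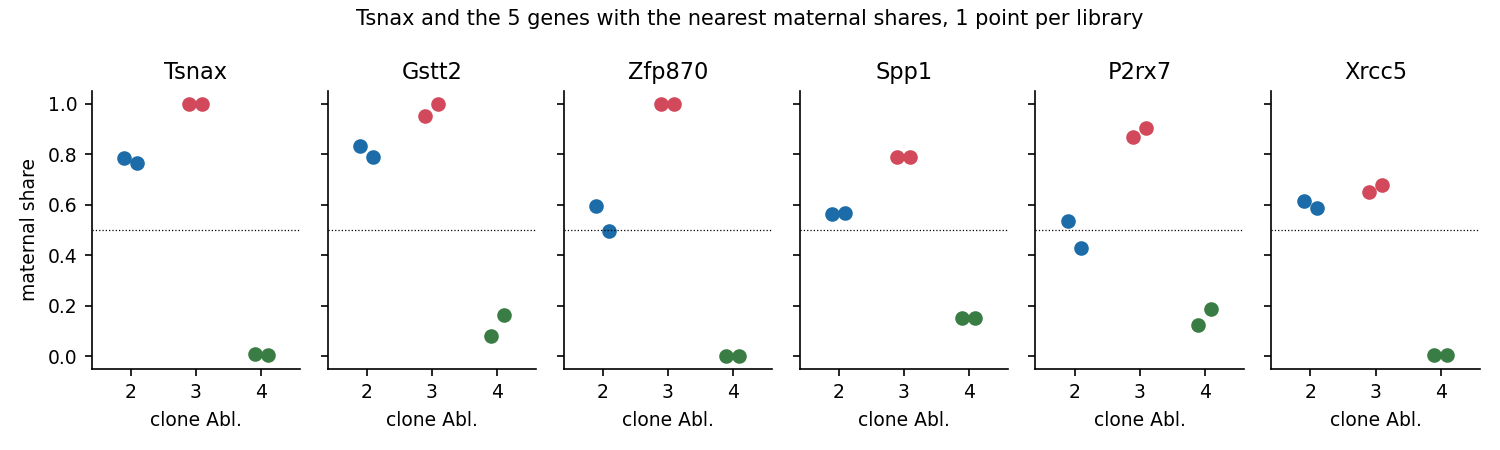
Maternal share (vertical axis) of Tsnax and of the 5 genes with the nearest shares in the libraries of Abl.2, Abl.3 and Abl.4 (horizontal axis), 1 point per library. Tsnax, Gstt2 and Zfp870 are near 1 in Abl.3. In Abl.4, Tsnax, Zfp870 and Xrcc5 are near 0, and Gstt2, Spp1 and P2rx7 lie at 0.0811 to 0.189.

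The genes that work with C3PO were read as lists. In the list of 15 genes of microRNA and RNA interference machinery, all 15 were tested for abundance and 9 differed in at least 1 pair of clones, against 59.7% of all genes tested. With quantile normalisation or a common median the count was 6 of 15, where 56.6% and 60.6% of all genes were called. Without replicate 1 or replicate 2 of Abl.3 the count was 5 of 15, where 43.2% and 42.2% of all genes were called. In Abl.2 against Abl.3, 3 were higher and 2 lower in Abl.2, where 25.9% and 14.0% of all genes were called in those directions. In Abl.2 against Abl.4, 3 were higher and 2 lower (15.0% and 18.4% of all genes), and in Abl.3 against Abl.4, 1 was higher and 6 lower (11.3% and 26.8%). The median log2 differences of the list were 0.20, -0.01 and -0.29 in those pairs, beside 0.10, -0.03 and -0.15 over all genes tested.

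The Argonaute gene Ago4 changed most, and in the direction opposite to Tsnax: it was at 0.18 and 0.21 TPM in Abl.2, 2.46 and 2.17 TPM in Abl.3 and 6.71 and 7.90 TPM in Abl.4. The difference of Abl.2 against Abl.4 was -2.79 (SE 0.17, adjusted p = 6.8e-05, limma). Snd1, a nuclease that is found with the silencing complex, was at 200 and 192 TPM in Abl.2 and 123 and 112 TPM in Abl.3, higher in Abl.2 by 0.73 (SE 0.09, adjusted p = 0.0017, limma). Tarbp2, a partner of Dicer, was at 82.0 and 69.5 TPM in Abl.3 and 48.7 and 43.8 TPM in Abl.4, higher in Abl.3 by 0.70 (SE 0.12, adjusted p = 0.00549, limma), but missed the threshold on summed allelic counts (adjusted p = 0.0613 by edgeR or 0.102 by DESeq2). Tnrc6b, a GW182 protein that Argonaute recruits, was higher in Abl.2 than in Abl.3 by 0.64 (SE 0.14, adjusted p = 0.0117, limma), and without any single library of these clones the adjusted p lay between 0.0538 and 0.0655.

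For alleles, 4 of 13 tested genes of this list differed in at least 1 pair, against 35.6% of all genes. In the direction of a higher maternal ratio in the first clone, 15.4%, 12.7% and 8.53% of all genes were called for Abl.2 against Abl.3, Abl.2 against Abl.4 and Abl.3 against Abl.4, and 13.0%, 9.61% and 7.93% in the other. Ago1, Ago3 and Ago4, which lie on chromosome 4, had maternal shares of 0.991 to 1.0, 1.0, and 0.909 to 0.946 in Abl.2, and 0.435 to 0.526 in the libraries of the other clones. Chromosome 4 as a whole had a median share of 0.998 in both libraries of Abl.2. In Abl.2, the clone that read Tsnax from both copies, these Argonaute genes were thus read from the maternal copy. Snd1 differed between Abl.3 and Abl.4 by 0.21 (SE 0.06, adjusted p = 0.0366, edgeR), and leaving out any library but replicate 2 of Abl.4 gave adjusted p-values of 0.0691, 0.069, 0.19, 0.0792 and 0.156.

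In the list of 11 genes of tRNA end processing, which are subunits of RNase P and RNase MRP and the nuclease Elac2, all 11 passed the filter of a mean of 1 TPM, and Rpp25 did so only through Abl.3, where it was high. Without such genes, 5 of 10 differed in abundance in at least 1 pair, against 58.9% of 10464 genes. The count was 1 of 10 without replicate 1 or 2 of Abl.2 (41.2% and 41.5% of those genes), 2 without replicate 1 or 2 of Abl.3 (42.1% and 40.9%) and 3 without replicate 2 of Abl.4 (51.6%). In Abl.2 against Abl.3, 0 of 10 were higher and 2 lower (26.1% and 13.5% of those genes). In Abl.2 against Abl.4 and in Abl.3 against Abl.4, 2 were higher (1557 and 1147 of those 10464 genes were) and 0 lower (17.5% and 26.3%). The median differences were -0.05, 0.22 and 0.17 in those pairs, beside 0.10, -0.02 and -0.14 over those genes. Rpp25 was at 0.06 and 0.10 TPM in Abl.2, 2.45 and 2.30 TPM in Abl.3 and 0.49 and 0.73 TPM in Abl.4. These values are a description without a test. Pop1 and Pop5 were higher in Abl.2 than in Abl.4 by 0.55 (adjusted p = 0.0384) and 0.49 (adjusted p = 0.0163) by limma, and Pop7 was higher in Abl.3 than in Abl.4 by 0.44 (adjusted p = 0.0111). Those calls were lost without 1 library: for Pop1 any of the 4 libraries (highest adjusted p = 0.195), for Pop5 any but replicate 1 of Abl.4 (0.0925) and for Pop7 either library of Abl.3 (0.0705). Of 7 genes tested for alleles, 0 differed between clones in the edgeR test, with 3 at an unadjusted p below 0.05 and 0 by DESeq2, against 35.6% of all genes by edgeR.

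Of 8 known partners of translin or TRAX, Plcb1 (a phospholipase C that binds TRAX) and Tsnaxip1 were listed at 0 TPM in every library, and Adora2a reached the mean of 1 TPM needed for testing only through Abl.3, where it was highest. Of the other 5, 3 differed in abundance in at least 1 pair, against 58.9% of the genes tested without such cases, or 2 without replicate 1 of Abl.3 (42.1%). Ppp1r15a, a phosphatase subunit of the stress response that binds translin, was at 111 and 103 TPM in Abl.2, 63.3 and 54.6 TPM in Abl.3 and 84.6 and 66.3 TPM in Abl.4. It was higher in Abl.2 than in Abl.3 by 0.85 (SE 0.14, adjusted p = 0.0039, limma), and was the only 1 of 6 with an allelic difference (35.6% of all genes had one), of -0.69 for Abl.2 against Abl.3 (SE 0.17, adjusted p = 0.0109, edgeR), a call lost without replicate 1 of Abl.2 (0.0968) or replicate 1 of Abl.3 (0.0742). Akap9, an anchoring protein of the centrosome, had less transcript in Abl.2 than in Abl.4, a log2 difference of -0.61 (SE 0.10, adjusted p = 0.00474, limma). Adora2a, the adenosine receptor whose tail binds TRAX, was at 0.56 and 0.60 TPM in Abl.2 and 1.09 and 1.12 TPM in Abl.4. These values too are a description without a test. Gsk3b, a kinase that binds TRAX and DISC1, had less transcript in Abl.3 than in Abl.4, by a log2 difference of -0.45 (adjusted p = 0.0174, limma). It missed the threshold without replicate 1 or 2 of Abl.3 or replicate 2 of Abl.4, with quantile normalisation, on summed allelic counts by edgeR and DESeq2, and with a common median, where it was -0.20 with the highest adjusted p of these, 0.154, by limma. The medians of the 5 genes were 0.38, -0.06 and -0.41 in the 3 pairs, where all genes without such cases had 0.10, -0.02 and -0.14.

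Partners of DISC1 were present although Disc1 was not. Of 19 listed, 15 passed the abundance filter, and their levels reached 327 to 437 TPM for Atf4, 166 to 312 TPM for Ywhae and 137 to 306 TPM for Pde4b. Between clones, 8 of 15 differed in at least 1 pair, against 59.7% of all genes, or 5 and 4 of 15 without replicates 1 and 2 of Abl.3, where 43.2% and 42.2% of all genes did. Atf5, a transcription factor of the stress response, was at 1.85 and 1.70 TPM in Abl.2, 17.0 and 16.9 TPM in Abl.3 and 3.67 and 4.67 TPM in Abl.4, with a difference of -2.69 for Abl.2 against Abl.3 (SE 0.15, adjusted p = 4.77e-05, limma). Pde4b, a cyclic AMP phosphodiesterase, was at 306 and 297 TPM in Abl.2 and 142 and 137 TPM in Abl.3, higher in Abl.2 by 1.10 (SE 0.07, adjusted p = 8.98e-05, limma). Ywhae (14-3-3 epsilon) had less transcript in Abl.2 than in Abl.4, by a log2 difference of -0.69 (SE 0.12, adjusted p = 0.00539, limma). Pde4d differed for Abl.2 against Abl.3 by -0.67 (adjusted p = 0.0329, limma), and missed the threshold without any single library of these clones (highest adjusted p = 0.156). The list's medians were 0.09, -0.06 and -0.22 in the 3 pairs, beside 0.10, -0.03 and -0.15 over all genes.

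**Figure D5:**
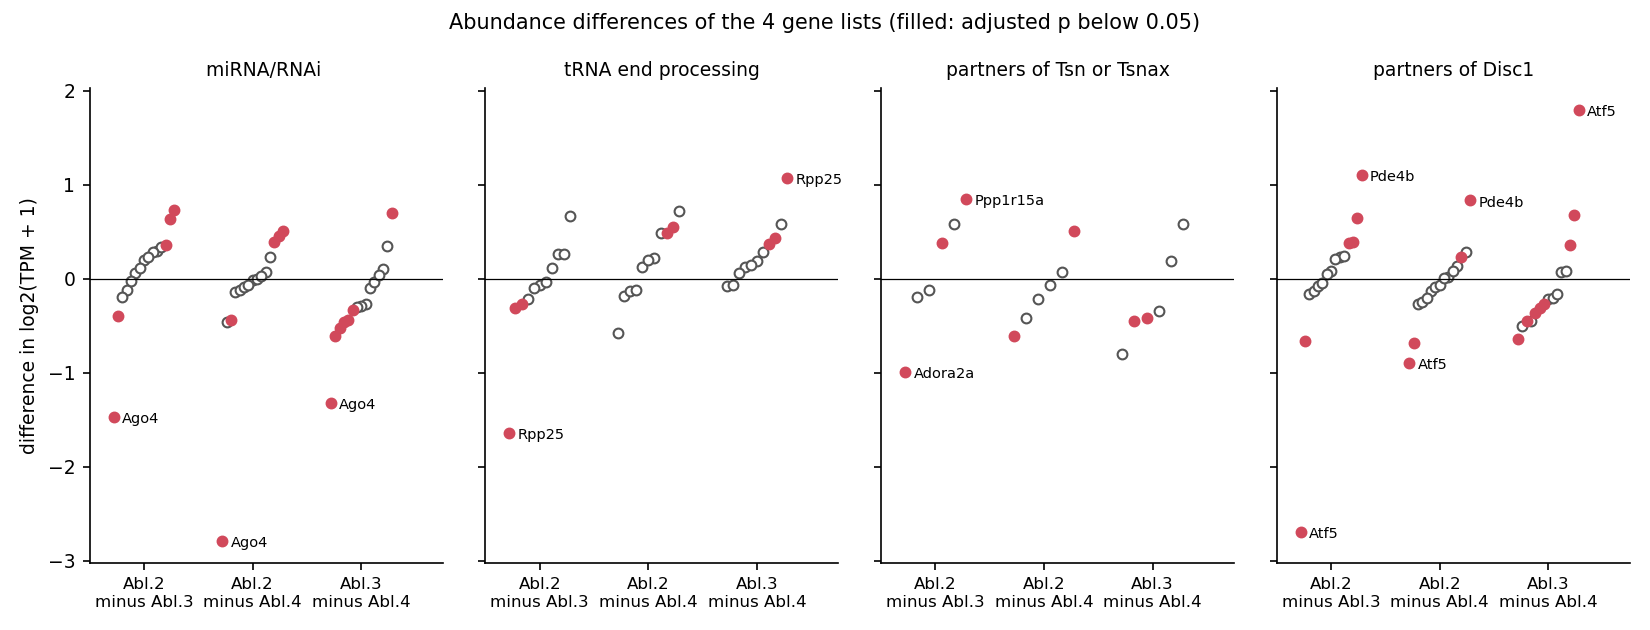
Abundance differences on the log2(TPM + 1) scale (vertical axis) of the tested genes of 4 lists for the 3 pairs of clones (horizontal axis), with filled points for adjusted p below 0.05 by limma. Most points lie within 1 of the zero line, and apart from Rpp25 those furthest from it are of Ago4, Pde4b and Atf5. Rpp25 and Adora2a passed the filter only through Abl.3, and their points, filled or not, are a description without a test.

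For alleles, 3 of 14 tested partners of DISC1 differed in at least 1 pair, against 35.6% of all genes, namely Pde4b, Bbs1 and Pde4d. Pde4b lies on chromosome 4 and had a maternal share of 0.998 in both libraries of Abl.2, and 0.487 to 0.518 in the other clones. Bbs1, a subunit of the ciliary BBSome, was the reverse in Abl.2, at 0.0947 and 0.124, against 0.442 to 0.621 elsewhere. Pde4d had shares of 0.820 and 0.597 in Abl.2, 0.576 and 0.502 in Abl.3, and 0.316 and 0.146 in Abl.4, with the lowest share in the clone where Tsnax was paternal. It differed between Abl.2 and Abl.4 by 3.07 (SE 0.62, adjusted p = 0.00365, edgeR). The difference between Abl.3 and Abl.4 was 2.02 (SE 0.60, adjusted p = 0.0449, edgeR), a call lost without replicate 1 of Abl.3 (adjusted p = 0.205), replicate 2 of Abl.3 (0.119) or replicate 2 of Abl.4 (0.237, with a difference of 1.34).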

How the data were processed

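Libraries were made from RNA of 3 clones, 2 each, with a SMART-seq kit, per the labels' protocols. The authors deposited allelic counts, whole numbers taken at SNP positions within each gene, and TPM obtained with DESeq2, both per the file headers. The authors also deposited a table of maternal fractions, with 1 value per clone from averaged replicates and its confidence limits, per the file headers. The submitters' processing notes name STAR 2.5.4a, SAMtools, GATK and DESeq2, with several genome builds and no role or order. The SNP list, the confidence level of those limits and the handling of reads over several SNPs are not given in the sources used here. Of 35412 genes, 98.7% have the same start in GENCODE release M21. Copies are called maternal or paternal after the column names, without assigning a strain.

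Genes with at least 20 allelic counts in each of 6 libraries (8702 genes) went into the quasi-likelihood test of edgeR 4.0.16 (R 4.3.3). Its design had a baseline for every library and estimated 1 allele ratio for each clone. The output of 1 allele of Tsn between clones was tested with the same tool and TMM factors of the summed counts. Abundance was tested with limma 3.58.1 on log2(TPM + 1) for 11003 genes averaging 1 TPM or more, a scale that understates the change of low genes. TPM keep no depth. Thresholds were Benjamini-Hochberg adjusted p-values of 0.05 over all genes tested. DESeq2 1.42.0 served as an alternative.

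The members, lists and tests were chosen with earlier results of these data known. Named genes are the 3 members, neighbours within 1 Mb past a threshold with the nearest tested gene on each side, up to 4 genes per list and test, and the 5 genes nearest to Tsnax in maternal share. Slc35f3, Coa6, Gnpat and Sipa1l2 were added after their values were seen. Other settings tried were coverage minimums of 10 and 50 or none, pseudocounts of 0.1 and 0.5, a filter at 5 TPM or none, quantile normalisation, windows of 0.5 and 2 Mb, other size factors, a replicate block and leaving out each library. A common median for all libraries, counts without genes that reach the mean of 1 TPM only through 1 clone (a mean below 1 over the other clones), and every alternative for the output of 1 allele were added after seeing the data. The tests were first run on simulated data with known changes. Of the 3 members, 2 matched the RefSeq promoter table.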

Additional observations from a re-analysis of the deposited data

Results flagged for a closer look

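These genes had an allele ratio that differed between clones by the edgeR test of the difference itself, given as log2 of maternal over paternal counts. Tsn differed by 0.40 for Abl.2 minus Abl.3 and by -0.33 for Abl.3 minus Abl.4. Among the neighbours of Tsnax, Urb2 differed by -0.68, 2310022B05Rik by -0.82, Fam89a by -3.24 and 2810004N23Rik by -0.53 for Abl.2 minus Abl.3. Fam89a also differed by -5.73 for Abl.2 minus Abl.4, and 2310022B05Rik by 0.69 for Abl.3 minus Abl.4.

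Among the genes of the lists, Ago1 differed by 7.76 and 7.71, Ago3 by 10.79 and 11.06, and Ago4 by 3.77 and 3.69 for Abl.2 minus Abl.3 and Abl.2 minus Abl.4. The values of Ago3 depend on the prior count of the fit, since it had 0 paternal counts in Abl.2. Ago1 had 0 paternal counts in replicate 1 of Abl.2, and its values, which also depend on the prior count when that library stands alone, were 12.0 and 11.9 without replicate 2 of Abl.2. In those pairs, Pde4b differed by 8.9997 and 8.97 and Bbs1 by -3.25 and -2.79. Ago1, Ago3, Ago4 and Pde4b lie on chromosome 4, whose tested genes had a median maternal share of 0.998 in Abl.2. Ppp1r15a differed by -0.69 for Abl.2 minus Abl.3. Pde4d differed by 3.07 for Abl.2 minus Abl.4 and by 2.02 for Abl.3 minus Abl.4, and Snd1 by 0.21 for the latter pair. With 2 libraries per clone, single libraries were not tested as outliers.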

How the results depend on the processing

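The imbalance of Tsnax in Abl.2 kept its direction and its side of the threshold in all alternatives run, and its untested abundance differences kept their direction. The difference of Tsnax between Abl.3 and Abl.4 was 1.65 after quantile normalisation and 1.61 with a common median, against 1.36. Its mean maternal share was 0.764 to 0.785 in Abl.2, 0.999 in Abl.3 and 0.00552 to 0.00786 in Abl.4 with 1 library of the clone left out. For Tsn, the abundance difference of Abl.2 against Abl.3 passed the threshold with quantile normalisation (-0.28), a common median (-0.38), edgeR (-0.36) and DESeq2 (-0.37) on summed allelic counts. For Abl.3 against Abl.4 it changed sign, without passing the threshold, under the same settings (0.019, 0.20, 0.19 and 0.19) and ranged from -0.087 to 0.0093 without 1 library. The imbalance of Tsn in Abl.4 passed with TMM factors per allele (-0.16). Without 1 library, its allelic differences ranged from 0.32 to 0.48 for Abl.2 against Abl.3, from -0.015 to 0.15 for Abl.2 against Abl.4 and from -0.38 to -0.29 for Abl.3 against Abl.4, and its maternal output for Abl.3 against Abl.4 from -0.061 to 0.065 (-0.0069 with library totals only). The causes were not tested.

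Replicate numbers are library numbers within a clone, and nothing in the labels ties them across clones. Only 2 numbers exist, so that each pair of clones gives 1 independent deviation per gene. Deviations of same-numbered libraries correlated at 0.104 to 0.187 for abundance and at -0.056 to 0.0151 for maternal shares. With a replicate block, the abundance difference of Tsn passed the threshold for Abl.2 against Abl.3 (-0.20, adjusted p = 0.0492) and for Abl.2 against Abl.4 (-0.24, adjusted p = 0.0318) by limma. The block gave an abundance difference in at least 1 pair for 69.7% of all genes, 9 of 15 genes of microRNA machinery and 11 of 15 partners of DISC1. The allelic difference of Snd1 between Abl.3 and Abl.4 missed the threshold with the block (0.21, adjusted p = 0.0516, edgeR).

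A window of 2 Mb held more genes: 16 of 33 tested neighbours of Tsnax had an imbalance, 7 of 33 an allelic difference and 17 of 36 an abundance difference, below the 66.1%, 35.6% and 59.7% of all genes, and around Tsn the first pair of counts was 5 and 2 of 8. DESeq2 on summed allelic counts called 4 of 11 neighbours of Tsnax in abundance (62.6% of all genes), and DESeq2 called 5 of 14 partners of DISC1 for alleles (36.3%). Without 1 library, the genes with an abundance difference numbered 2466 to 4541, 1970 to 3296 and 2343 to 3691 in the 3 pairs. Those with one in at least 1 pair were 42.2% to 57.8% of all genes. The list counts of abundance differences were then 5 to 8 of 15 for microRNA machinery and 4 to 10 of 15 for partners of DISC1. The lists of tRNA end processing and of partners of translin or TRAX hold Rpp25 and Adora2a, which passed the filter only through Abl.3. Their counts are therefore given only in the Results, without those genes. The allelic count of the partners of translin or TRAX was 0 to 1 of 6 (30.6% to 36.0% of all genes), and 1 to 2 of 2 neighbours of Tsn had an abundance difference. With 2 libraries per clone, leaving out 1 leaves a lone library assumed to vary like the others.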
